A study of Homo sapiens with 5 samples.

Results

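The genes described here encode the enzymes that place or remove methyl and acetyl groups on histones, the proteins that bind those marks, and the subunits of the Polycomb complexes. They were defined by gene name (the KDM, KMT2, KMT5, SETD, EHMT, SUV39H, NSD, DOT1L, PRMT, HDAC, SIRT, KAT, EP300, CREBBP, EZH, EED, SUZ12, ASXL, BMI1, PCGF, CBX, ING, ASH1L, ASH2L and BRD families). The rule found 81 of the 6309 genes in the authors' deposited table. The cells were HL-60, an established human line from a promyelocytic leukaemia, labelled as wild type. They received 100 nM decitabine at the outset (0 hours) and again after 24 and after 48 hours, or the solvent DMSO, and lysates were taken at 72 hours. Decitabine is a deoxycytidine analogue that traps DNA methyltransferases on DNA. For each treatment the labels list 2 libraries of total RNA. The mRNA fragments that ribosomes shielded from nuclease are listed as 1 pooled library for the whole series. The labels do not show how its decitabine and DMSO fragments were told apart or replicated. Ribosome profiling sets these fragments against total RNA to give the translation efficiency of each mRNA. All 10 promyelocytic and granule markers looked up, MPO and ELANE among them, had a row in the authors' deposited table. None of the 5 erythroid, 5 lymphoid and 3 megakaryocyte markers looked up had one.

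Histone tails carry methyl and acetyl groups that mark chromatin as active or silent. Writers add a mark, erasers remove it, and readers bind it and recruit other proteins. Polycomb repressive complex 2 (PRC2) methylates histone H3 at lysine 27, and PRC1 binds that mark and ubiquitinates histone H2A. In myeloid leukaemia several of these genes are known as mutated or fused genes, among them KMT2A, ASXL1, EZH2, CREBBP and KAT6A.

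Each gene has 1 coefficient for the drug, on a natural log scale as far as the header shows, where a positive value stands for higher translation efficiency with decitabine than with DMSO. The error given beside a coefficient is an implied standard error, obtained by dividing the coefficient by the z value that belongs to its deposited p-value, and intervals are 95% intervals built from it. No value per library was used here, so the depth behind each gene is unknown and no spread between cultures can be shown. The cells were measured in bulk, so a change in some of the cells and a smaller change in all of them cannot be told apart. RefSeq lists 122 protein-coding symbols that match the naming rule, and 41 of them had no row in the authors' deposited table. By class, 38 of 46 writers, 22 of 38 erasers, 15 of 18 readers and 6 of 16 Polycomb subunits were measured, and the other 4 symbols had no class. The sources used here do not state which filter on low counts the authors applied.

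No histone-modification gene changed in translation efficiency past the threshold. By the adjusted p of the authors' deposited table, at a threshold of 0.05, 0 of the 81 genes were called, where 0.808% of all genes were. Without adjustment, 13 of the 81 had a p below 0.05 per the authors' deposited table, which is 16.0%, against 10.3% of all genes. Of these 13, 11 had a positive coefficient (13.6%, against 8.35% of all genes) and 2 a negative one (2.47%, against 1.95%). The smallest adjusted p by the authors' deposited table belonged to KMT2C, with 0.0902, and the next to EED, with 0.102. An adjusted p below 0.1 was reached by 1 of the 81 genes, or 1.23%, and by 1.36% of all genes. The median coefficient of the 81 was 0.14, and that of all genes 0.09, so most genes lay above 0 whether or not they act on histones: 71.6% of the 81 and 65.0% of all genes did. After the median of all genes was subtracted, at an unadjusted p below 0.05, 4 genes were higher (4.94%, against 3.69% of all genes) and 3 lower (3.70%, against 4.25%), which together is 8.64% against 7.94%; after adjustment 0 of the 81 passed, against 0.586% of all genes.

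**Figure D1:**
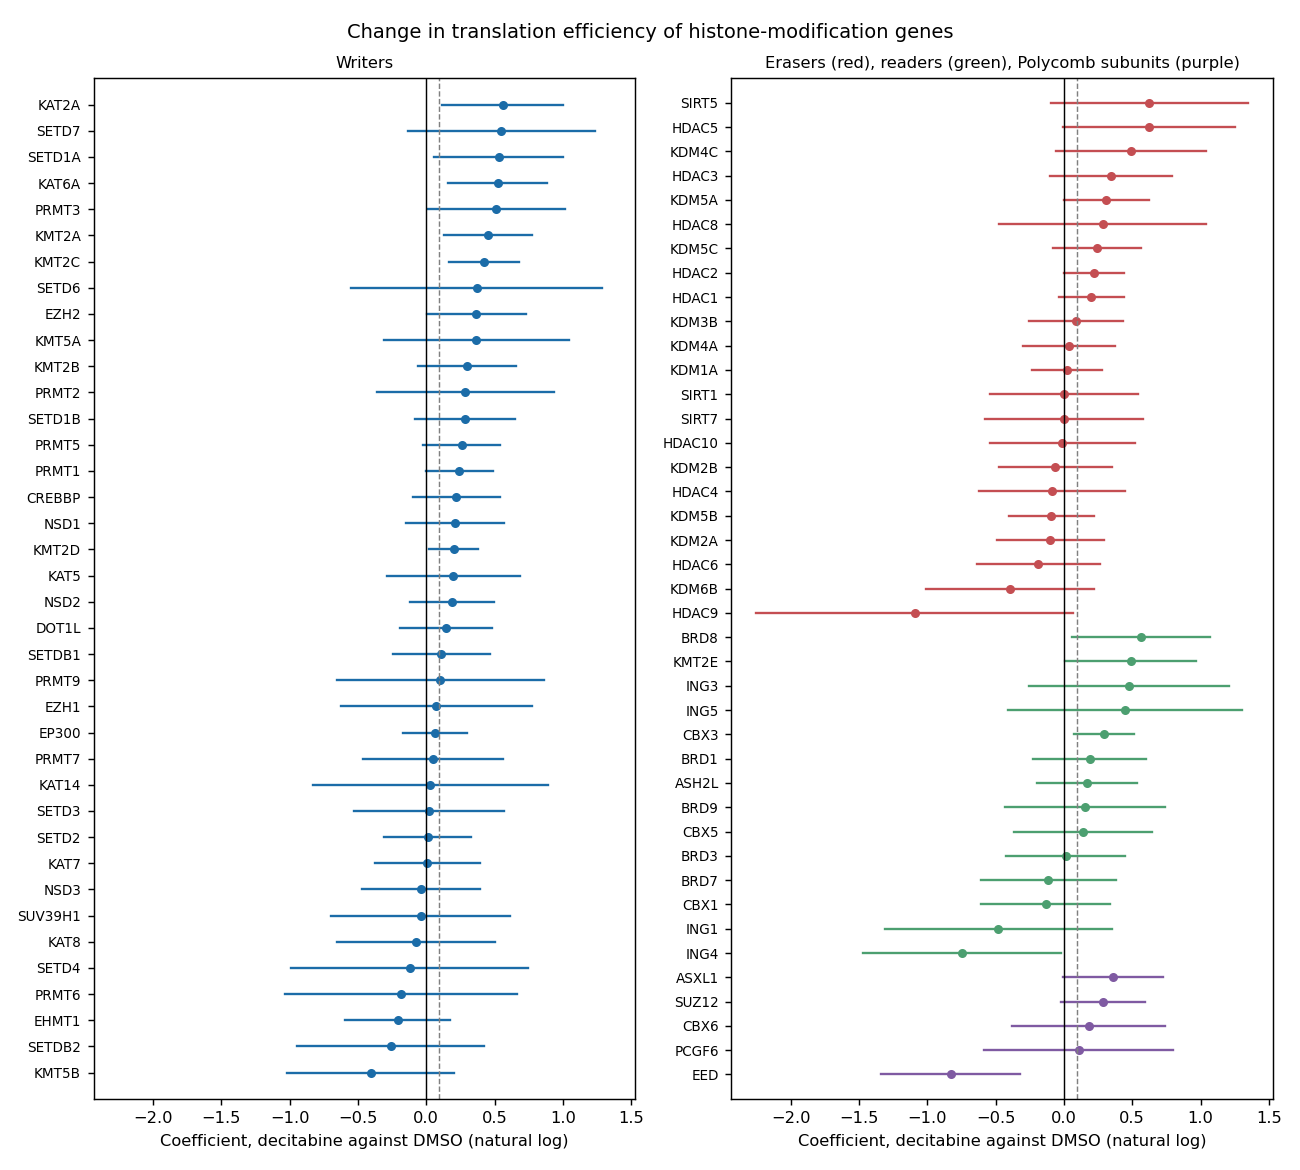
Coefficient of 79 of the 81 genes (points, natural log) with its 95% interval (lines), for writers on the left and for erasers, readers and Polycomb subunits on the right; the solid line is 0 and the dashed line is the median of all genes, 0.09. Most intervals cross 0, the COMPASS methyltransferases lie to the right of the dashed line, and EED lies apart from the other Polycomb subunits.

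Writers had the highest median of the 4 classes and erasers the lowest, but among writers and among erasers the spread was wider than the distance between their medians. The 38 writers had a median of 0.19, with quartiles of 0.01 and 0.35, and 30 of them lay above 0. For the 22 erasers the median was 0.03, with quartiles of -0.08 and 0.27, and 12 lay above 0. The 15 readers had a median of 0.15 (11 above 0), and the 6 Polycomb subunits one of 0.16 (5 above 0). At an unadjusted p below 0.05 per the authors' deposited table, 8 writers were higher and none lower, no eraser was on either side, 3 readers were higher and 1 lower, and 1 Polycomb subunit was lower, where 8.35% of all genes were higher and 1.95% lower. After subtraction of the median of all genes these counts were 4 higher writers, 1 lower eraser (HDAC9), 1 lower reader and 1 lower Polycomb subunit, with no higher reader, where 3.69% of all genes were higher and 4.25% lower. With the median of all genes subtracted, the erasers had a median of -0.07 and the writers one of 0.10. The precision-weighted mean, which gives well-measured genes more weight, was 0.20 for writers and 0.11 for erasers, a smaller distance than that between the medians. The difference between the classes was not tested, because genes are not replicates of a condition.

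**Figure D2:**
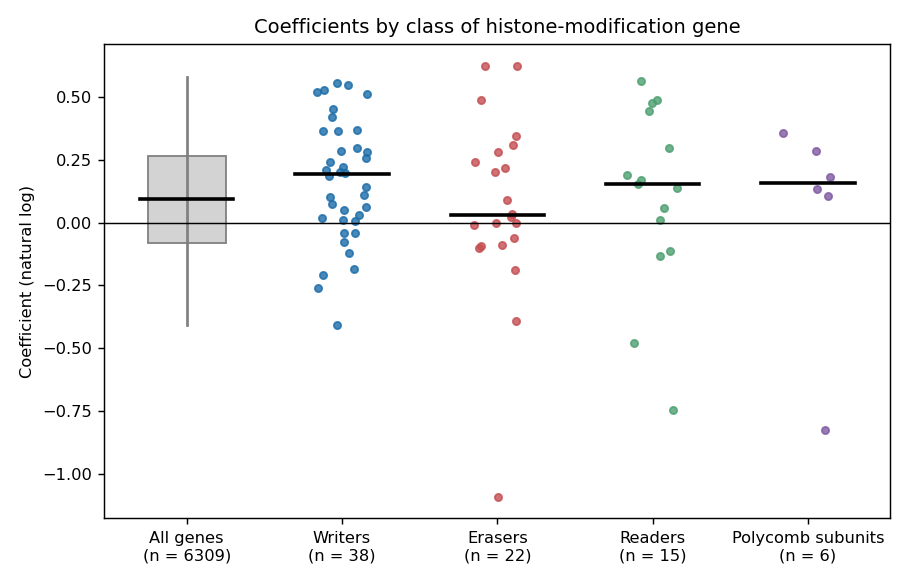
Coefficients (natural log) by class, with each gene as a point and the class median as a black line; for all 6309 genes the box spans the quartiles and the line the 5th to 95th percentile. The medians run from 0.03 in erasers to 0.19 in writers, and the points of the 4 classes overlap over most of their range.

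The methyltransferases of histone H3 lysine 4 in COMPASS complexes all had positive coefficients. These enzymes are the catalytic subunits of those complexes, which mark active promoters and enhancers. All 6 measured had a coefficient above the median of all genes, with a range of 0.20 to 0.53 and a median of 0.36 per the authors' deposited table, and 4 of the 6 were higher at an unadjusted p below 0.05, where 8.35% of all genes were. None passed after adjustment. All 6 were also measured more precisely than the median gene, with implied standard errors of at most 0.24. Of the 3154 genes in the whole table that were as precise as that, 358 were higher at an unadjusted p below 0.05.

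KMT2C, which methylates enhancers, had 0.42 ± 0.13 (implied SE, adjusted p of the authors' deposited table = 0.0902). On a natural log scale this is 1.52 times the DMSO level, with an interval of 1.18 to 1.97, and if the coefficient were a log2 value it would be 1.34 times. Its gene (transcript ENST00000262189) spans bases 152134925 to 152436003 of chromosome 7 on hg38. KMT2D, its close relative, was the best measured of the 81 genes, with 0.20 ± 0.09 (adjusted p of the authors' deposited table = 0.402). The promoter-bound enzyme KMT2A, whose gene fusions drive a class of leukaemias, had 0.45 ± 0.16 (adjusted p of the authors' deposited table = 0.193), and its gene spans bases 118436492 to 118526832 of chromosome 11. For KMT2B, the relative of KMT2A, the value was 0.30 ± 0.18 (adjusted p of the authors' deposited table = 0.596). SETD1A and SETD1B, the enzymes of the remaining COMPASS complexes, had 0.53 ± 0.24 (adjusted p = 0.402) and 0.28 ± 0.19 (adjusted p = 0.638) per the authors' deposited table. After subtraction of the median of all genes, the adjusted p recomputed from the authors' deposited table was 0.411 for KMT2C (0.33), 0.552 for KMT2A (0.36) and 0.875 for KMT2D (0.11). In that setting 2 of the 6, KMT2C and KMT2A, kept an unadjusted p below 0.05, where 3.69% of all genes were higher. Of the subunits without enzyme activity, ASH2L had 0.17 ± 0.19 per the authors' deposited table, and 8 further COMPASS subunits ranged from -0.15 to 0.24 with a median of 0.07, so the highest of them overlapped the lower end of the enzymes' range.

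Erasers of the same mark ranged from -0.09 to 0.31 per the authors' deposited table. KDM1A, the flavin-dependent lysine demethylase also known as LSD1, had 0.02 ± 0.13 per the authors' deposited table, with an interval of -0.23 to 0.28. The JmjC enzymes of the KDM5 family, which remove trimethyl groups from lysine 4, had 0.31 ± 0.16 (KDM5A), -0.09 ± 0.16 (KDM5B) and 0.24 ± 0.16 (KDM5C) per the authors' deposited table, so 2 of the 3 lay within the range of the methyltransferases. Each of these intervals included 0.

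Writers of the repressive lysine 9 mark had mostly negative coefficients. Of the 4 measured, 3 were below 0: SETDB2 with -0.26 ± 0.35, EHMT1 with -0.21 ± 0.20 and SUV39H1 with -0.04 ± 0.34 per the authors' deposited table, whereas SETDB1, which silences repeats, had 0.11 ± 0.18. All 4 intervals included 0, and the smallest adjusted p was 0.773. The lysine 36 methyltransferases NSD1, NSD2, NSD3 and SETD2 ranged from -0.04 to 0.21. SETD2, the main trimethylase of that residue, had 0.01 ± 0.16 per the authors' deposited table. Its interval of 0.736 to 1.38 times the DMSO level did not include a 2-fold change, but it may not hold the spread between cultures. DOT1L, the methyltransferase of lysine 79, had 0.14 ± 0.17. The lysine 20 enzymes of histone H4 were on opposite sides and imprecise, with 0.37 ± 0.34 for KMT5A and -0.41 ± 0.31 for KMT5B per the authors' deposited table, the latter the lowest coefficient of any writer. SETD7, which monomethylates lysine 4 and many other proteins, had 0.55 ± 0.35, and 3 SET-domain enzymes known mainly for other substrates (SETD3, SETD4 and SETD6) ranged from -0.12 to 0.37.

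Arginine methyltransferases were mostly positive. Of 7 measured, 6 lay above 0, with a median of 0.24. PRMT1, the enzyme that makes most asymmetric dimethylarginine, had 0.24 ± 0.13 (adjusted p of the authors' deposited table = 0.490), and PRMT5, the main symmetric enzyme, had 0.26 ± 0.14 (adjusted p there = 0.544). PRMT3, a cytoplasmic enzyme known for methylating a ribosomal protein, had 0.51 ± 0.26 and an unadjusted p of 0.0445 per the authors' deposited table. PRMT6 was the exception in sign with -0.19 ± 0.43, and PRMT2, PRMT7 and PRMT9 had implied standard errors of 0.26 to 0.39.

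Of 8 acetyltransferases 7 had a coefficient above 0, where 65.0% of all genes did, and 4 lay above the median of all genes. At an unadjusted p below 0.05, 2 were higher, where 8.35% of all genes were. KAT6A, the MYST-family enzyme also called MOZ, had 0.52 ± 0.18 (adjusted p of the authors' deposited table = 0.176), or 1.69 times the DMSO level with an interval of 1.18 to 2.42. KAT2A, also called GCN5 and the enzyme of the SAGA complex, had 0.56 ± 0.23 (adjusted p of the authors' deposited table = 0.298), the highest coefficient of any writer. After subtraction of the median of all genes their adjusted p recomputed from the authors' deposited table was 0.496 for KAT6A and 0.615 for KAT2A. Both kept an unadjusted p below 0.05, where 3.69% of all genes were higher. The coactivators EP300 and CREBBP, which acetylate enhancers, had 0.06 ± 0.12 and 0.22 ± 0.16 per the authors' deposited table. The remaining MYST enzymes had 0.20 ± 0.25 (KAT5), 0.01 ± 0.20 (KAT7) and -0.08 ± 0.29 (KAT8), and KAT14, of the ATAC complex, had 0.03 ± 0.44.

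Among deacetylases the class I enzymes were all positive and the class II enzymes mostly negative, but the intervals of all 9 included 0. The class I enzymes, most of them catalytic subunits of nuclear corepressor complexes, had 0.20 ± 0.12 (HDAC1), 0.22 ± 0.11 (HDAC2), 0.35 ± 0.23 (HDAC3) and 0.28 ± 0.39 (HDAC8) per the authors' deposited table. None had an unadjusted p below 0.05; HDAC2 came nearest with 0.0504. Of 5 class II enzymes, which shuttle between nucleus and cytoplasm or act on other proteins, 4 lay below 0. HDAC9 had the lowest coefficient of all 81 genes, -1.09, but also the largest implied standard error, 0.59, and an interval of -2.25 to 0.07 per the authors' deposited table. HDAC5 went the other way with 0.62 ± 0.32 (adjusted p of the authors' deposited table = 0.489), and HDAC4, HDAC6 and HDAC10 lay between -0.19 and -0.01. The sirtuins, deacylases that need NAD, gave -0.00031 ± 0.28 for SIRT1 and -0.0016 ± 0.29 for SIRT7 per the authors' deposited table, while the mitochondrial SIRT5 had 0.63 ± 0.37 (adjusted p = 0.569), the highest coefficient of the 81. The remaining JmjC demethylases ranged from -0.39 ± 0.31 for KDM6B, which removes the Polycomb mark, to 0.49 ± 0.28 for KDM4C, a lysine 9 demethylase; KDM2A, KDM2B, KDM3B and KDM4A lay between -0.10 and 0.09.

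**Figure D3:**
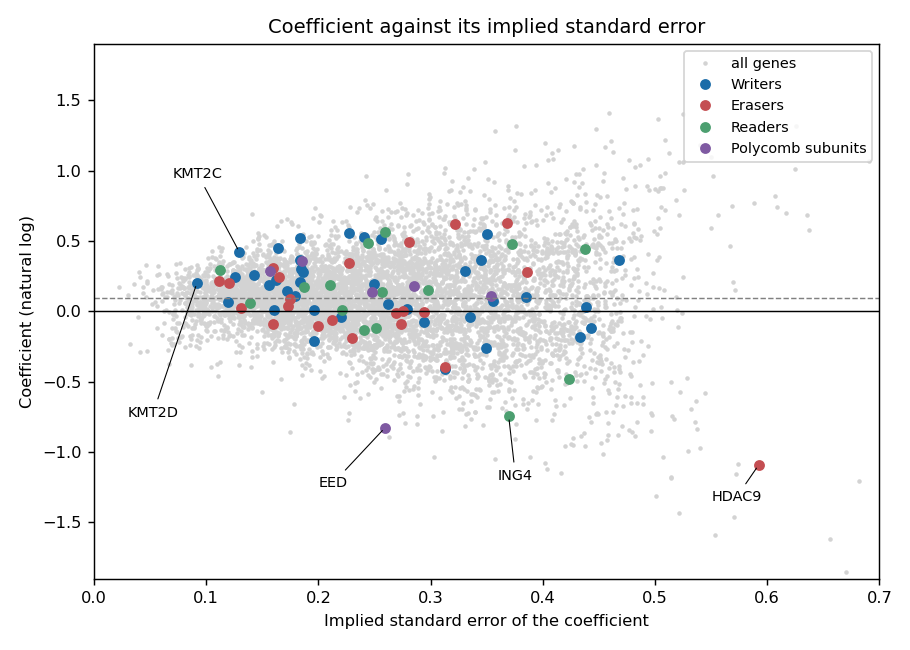
Coefficient (natural log) against implied standard error for all genes (grey) and for the 81 genes coloured by class; the dashed line is the median of all genes and 8 genes lie outside the axes. KMT2C and KMT2D are among the precise genes, whereas HDAC9, the lowest of the 81, is also the least precise of the 81.

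Precision differed across the 81 genes and more of the precise than of the imprecise ones had positive coefficients. Of the 45 genes with an implied standard error below the median of all genes (0.25), 37 lay above 0 and their median was 0.20. Of the other 36, 21 lay above 0 and the median was 0.06. Over all genes the same split gave medians of 0.10 and 0.09, with 2206 of 3154 and 1897 of 3155 genes above 0. The intervals of 45 of the 81 genes did not include a 2-fold change in either direction on a natural log scale, and the other 36 did. These intervals may not hold the spread between cultures.

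Readers included both positive and negative members. CBX3, the gamma form of heterochromatin protein HP1, had 0.30 ± 0.11 (adjusted p of the authors' deposited table = 0.221), or 1.34 times the DMSO level with an interval of 1.08 to 1.68. Its relatives were lower and less precise, with 0.14 ± 0.26 for CBX5 and -0.13 ± 0.24 for CBX1 per the authors' deposited table. BRD3, of the BET proteins, bromodomain readers that couple acetylated chromatin to transcription elongation, had 0.01 ± 0.22 per the authors' deposited table and lay below the median of all genes. BRD8, the bromodomain subunit of the NuA4 acetyltransferase complex, had 0.56 ± 0.26 and an unadjusted p of 0.0294 per the authors' deposited table, whereas BRD1, BRD7 and BRD9 lay between -0.11 and 0.19. KMT2E, a SET-domain protein counted here as a reader because no enzyme activity is settled for it, had 0.49 ± 0.24 (unadjusted p of the authors' deposited table = 0.0456). ING proteins, whose PHD finger binds methylated lysine 4, were the most scattered, with -0.75 ± 0.37 for ING4 (unadjusted p = 0.0435), -0.48 ± 0.42 for ING1, 0.48 ± 0.37 for ING3 and 0.45 ± 0.44 for ING5 per the authors' deposited table.

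Within PRC2 the core subunits had opposite signs. EED, the subunit that binds trimethylated lysine 27 and activates the enzyme, had -0.83 ± 0.26 (adjusted p of the authors' deposited table = 0.102), or 0.437 times the DMSO level with an interval of 0.263 to 0.726; if the coefficient were a log2 value it would be 0.563 times. It ranked 44 from the lowest among 6309 coefficients. The catalytic subunit EZH2 had 0.37 ± 0.18 (adjusted p = 0.466), SUZ12, the scaffold of the complex, had 0.28 ± 0.16 (adjusted p = 0.543), and EZH1, the alternative catalytic subunit, had 0.07 ± 0.36 per the authors' deposited table. The coefficient of EZH2 exceeded that of EED by 1.19 (interval 0.57 to 1.82), and that of SUZ12 did so by 1.11 (0.52 to 1.71), in comparisons chosen after the values were seen. EZH2 and SUZ12 differed by 0.08 (-0.39 to 0.56). After subtraction of the median of all genes EED had -0.92 and an adjusted p of 0.0571, the nearest to the threshold of any of the 81 genes in that setting. The gene of EED (transcript ENST00000351625) spans bases 86244753 to 86287615 of chromosome 11 on hg38. The 6 further PRC2 subunits measured ranged from -0.54 to 0.40, with 3 above 0, a median of 0.01 and no call; the lowest was AEBP2, with -0.54 ± 0.28 per the authors' deposited table, named after its value was seen.

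Few PRC1 subunits of the CBX and PCGF families were measured. The chromodomain subunit CBX6 had 0.18 ± 0.29, and PCGF6, of a variant PRC1, had 0.11 ± 0.35 per the authors' deposited table. Both intervals were wide in both directions, at 0.685 to 2.09 times the DMSO level for CBX6 and 0.556 to 2.23 times for PCGF6. BMI1, CBX2, CBX7, CBX8 and the other PCGF genes had no row in the authors' deposited table. Of 13 further PRC1 subunits listed as partners 8 were measured, with 5 above 0, a median of 0.07, a range of -0.14 to 0.64 and no call per the authors' deposited table. ASXL1, the cofactor of the BAP1 deubiquitinase that removes the PRC1 mark, had 0.36 ± 0.19 (adjusted p of the authors' deposited table = 0.489).

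Related genes were compared in 15 pairs, and the differences were within their error for all but 1. Both genes were above 0 in 10 pairs, both below 0 in 1, and on opposite sides in 4. HDAC1 minus HDAC2, which share corepressor complexes, was -0.02 (interval -0.34 to 0.30), PRMT1 minus PRMT5 was -0.02 (-0.39 to 0.36), and KDM2A minus KDM2B was -0.04 (-0.61 to 0.53). KMT2C minus KMT2D gave 0.22 (-0.09 to 0.53), SETD1A minus SETD1B 0.25 (-0.35 to 0.84), and EP300 minus CREBBP -0.16 (-0.55 to 0.24). EZH1 minus EZH2 was -0.29 (-1.08 to 0.49). These intervals do not show that the paired genes act alike, since the narrowest of the 15 was 0.62 wide. ING4 minus ING5, both subunits of the KAT7 complex, was -1.19 (-2.32 to -0.07), the only interval without 0, and the intervals were not adjusted for the number of pairs.

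**Figure D4:**
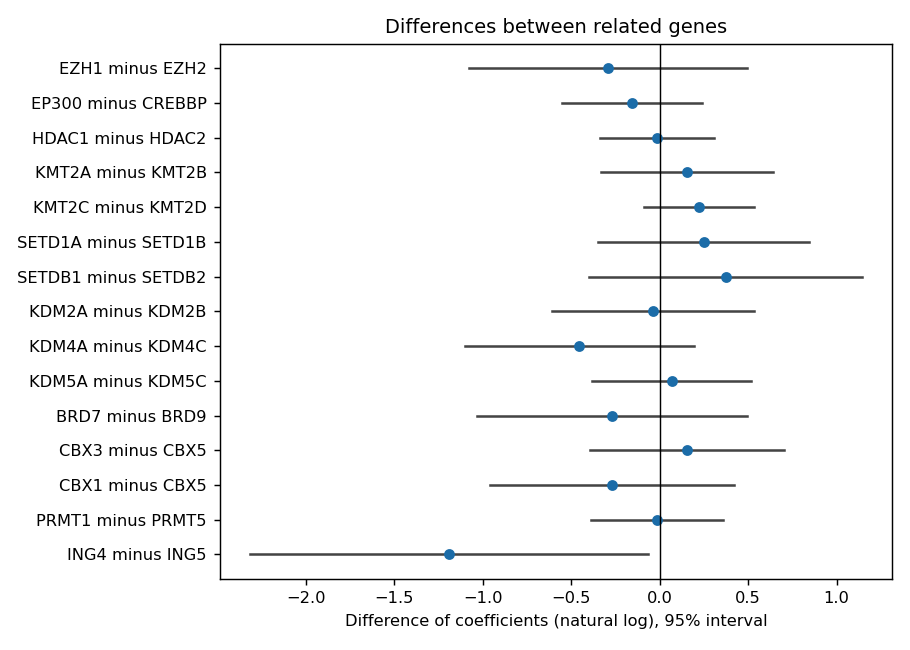
Difference of the coefficients (natural log, first gene minus second) for 15 pairs of related genes, as points with 95% intervals. The interval of ING4 minus ING5 lies below 0 and the other 14 include 0.

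The first bases of an mRNA were looked at because mRNAs that begin with a C and a run of pyrimidines (a terminal oligopyrimidine start) are known to be controlled in translation as a class. The search took, on the transcribed strand only, a C at the RefSeq start site followed by 4 bases that are each C or T. Such a start was annotated for 3 of 70 matched genes (4.29%), against 5.83% of 5145 genes of the table that were matched to RefSeq. The 3 starts are shown with those of KMT2C and EED, the genes with the smallest p-values, from 10 bases before the start to the 10th base of the transcript, with the first 5 transcribed bases in capitals (RefSeq, GRCh38.p14).
KMT2B, chr19:35717993-35718012, plus strand: tccccggcccCTCTCacggt
HDAC1, chr1:32292073-32292092, plus strand: ggaggcccgcCCCCTccccc
HDAC2, chr6:113971139-113971158, minus strand: gtttggtggcCCCCTcctcg
KMT2C, chr7:152435994-152436013, minus strand: tgcgcgcggaGGTGCgcgcg
EED, chr11:86244743-86244762, plus strand: ggtgtagcccATTCCacaga
The coefficients of KMT2B, HDAC1 and HDAC2, given above, were all positive, with a median of 0.22. The 300 genes of the table with such a start had a median of 0.02 and the others one of 0.10. Among 43 matched ribosomal protein genes, the 27 with such a start had a median of -0.17 and the others one of -0.15. A link between the start and the coefficient was not tested. The RefSeq start may differ from that of the transcript per the authors' deposited table, and a match is a description of the letters only.

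The partner genes of the same complexes gave the same picture of no call. Of 154 listed subunits and further histone-modifying genes that the naming rule does not catch, 115 were measured, with a median of 0.13. Of these, 82 lay above 0 (71.3%, against 65.0% of all genes). None was called by the adjusted p of the authors' deposited table, where 0.808% of all genes were. At an unadjusted p below 0.05, 6 were higher (5.22%, against 8.35% of all genes) and none lower (against 1.95%). After subtraction of the median of all genes 2 of the 115 were higher and 1 lower, where 3.69% of all genes were higher and 4.25% lower. Among the 6 that were higher before subtraction were DPF2, a subunit of the BAF remodelling complex, with 0.70 ± 0.23 (unadjusted p of the authors' deposited table = 0.00265), MBD6, of the BAP1 complex, with 0.78 ± 0.31 (0.0112), the corepressor NCOR1 with 0.37 ± 0.17 (0.0297), the SIN3 subunit SAP130 with 0.42 ± 0.21 (0.0455), and JADE1, of the KAT7 complex, with 0.46 ± 0.23 (0.0484). After subtraction the higher genes were DPF2 and MBD6, and the lower gene was AEBP2. The 9 measured genes listed as partners of the MYST enzymes KAT6A, KAT7 and KAT8 ranged from 0.13 to 0.54, all above the median of all genes. This list does not hold ING4, which lay below that median, or ING5, which lay above it. Subunits of SAGA and ATAC, the complexes of KAT2A, had a median of 0.02 over 11 genes, below the value of KAT2A itself.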

How the data were processed

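The submitters' processing notes name Bowtie2, SAMtools 1.11, UMI-tools 1.1.1 and the build hg38, with no role or settings for each. The authors deposited 1 table with, per the file headers, a model coefficient, its p-value, an adjusted p-value and a q-value for each gene. The coefficient was taken as a natural log, since the authors' deposited header carries R's names for a coefficient and its z test; the base is not stated. Benjamini-Hochberg adjustment of the deposited p-value over all 6309 genes gave the authors' adjusted p-value to within 6.61e-14. The sources used here do not state how replicates entered the model, nor that wells came from separate cultures, so the p-values can hold counting error alone.

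The planned count test could not be run on this table, and calls were read from the authors' adjusted p. Implied standard errors, 95% intervals, centring and readjustment were computed with Python 3.11.15, pandas 2.3.3, numpy 2.4.6 and scipy 1.17.1, and were tested on simulated data. Classes, 29 gene pairs (15 compared) and the partner list were written by hand. The naming rule uses no measured value, but the members and lists were chosen with earlier results of these data known. Genes named by rule were those with an adjusted p below 0.1 or an unadjusted p below 0.05, the 5 highest and 5 lowest coefficients, the 5 smallest implied standard errors, measured pairs, PRC1 and PRC2 members, and at most 10 partners with an unadjusted p below 0.05, 45 members in all; other genes named were chosen after their values were seen. The values of 3 genes are not reported here by name, though the counts and medians include them. All 81 symbols matched RefSeq (GRCh38.p14), and 70 had a start sequence.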

Additional observations from a re-analysis of the deposited data

How the results depend on the processing

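No paired analysis was possible because the deposited table holds 1 comparison per gene and no value per library; replicates could not be left out for the same reason. The count of 0 calls among the 81 genes was also 0 after centring on the median or on the precision-weighted mean of all genes, at an adjusted p below 0.01, with the Benjamini-Yekutieli adjustment, with the authors' q-value and without the 25% least precise genes; it was 1 (KMT2C) at an adjusted p below 0.1, which follows from the threshold. The count of genes with an unadjusted p below 0.05 was 13 as deposited. It was 7 after either centring, 4 higher and 3 lower, and 12 without the least precise genes. The 7 were not all among the 13, since HDAC9 had an unadjusted p of 0.065 as deposited and 0.0449 after centring on the median. The median of the 81 genes, 0.14, became 0.049 after centring on the median and 0.054 on the weighted mean, which follows from the shift, and lay between 0.14 and 0.16 when limited to precise genes or to histone substrates or extended by the partner genes; the precision-weighted mean of the 81 was 0.16. The median of erasers, 0.03, was -0.07 after centring, and their precision-weighted mean was 0.11. Of the 45 named members, 4 changed sign after centring on the median, BRD3 (-0.083), EP300 (-0.032), EZH1 (-0.022) and KDM4A (-0.059), and after centring on the weighted mean these had -0.078, -0.026, -0.016 and -0.053; the other 41 kept their sign and none passed the threshold. Over all 81 genes 12 changed from a positive to a negative sign after centring on the median, with KDM1A (-0.073), KAT7 (-0.088), SETD2 (-0.086), PRMT7 (-0.046), KAT14 (-0.065), SETD3 (-0.075) and KDM3B (-0.0063) among them. The planned split by coding length was not run, because protein lengths were not used here.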
